A study of Mus musculus with 4 samples.

Results

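The genes described here are 10 tetraspanins, namely Cd9, Cd81, Cd82, Cd53, Cd37, Cd151, Tspan3, Tspan4, Tspan7 and Tspan14. They were chosen by symbol, and all 10 were found among the 55471 genes of the count table. The libraries hold poly(A) RNA of brain cells taken with magnetic beads against CD11b, the integrin chain encoded by Itgam that marks microglia and other myeloid cells. All 4 libraries form 1 group: mice aged 10 to 13 weeks had been given PLX5622 over 7 days and were then kept 10 days off the drug, 17 days in all. PLX5622 inhibits the receptor kinase CSF1R, whose signal microglia need to survive, and the submitters named the returning cells repopulated microglia. Strain, sex, the dose and whether each library came from its own animal are not stated in the sources used here, so any p-value speaks of the spread among these libraries alone, and that spread may be technical. With no second group, no effect of the drug was estimated.

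Tetraspanins are small proteins that cross the membrane several times and carry a large extracellular loop held by conserved cysteines. Most have no known enzymatic activity. They bind partner proteins such as integrins, immunoglobulin-family proteins and the protease ADAM10, and gather them into membrane patches often called the tetraspanin web. In myeloid cells they are known for roles in adhesion, migration, membrane fusion and the release of vesicles.

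The libraries held 23036202 to 24487418 counts, and the 10 genes took 0.434% to 0.481% of them. Markers of homeostatic microglia, such as P2ry12, Tmem119 and Csf1r, were detected in every library (18 of 18 at 1 CPM or more, where CPM is a gene's counts scaled by library size). Library 3 stood apart in markers of other cells. Of the endothelial markers 9 of 10, of the pericyte and smooth muscle markers 9 of 9 and of the choroid plexus markers 9 of 9 were at their lowest there, and 10 of 10 interferon-response genes were at their highest there. In library 1, 7 of 7 markers of border-associated macrophages were at their highest. In these bulk libraries, fewer cells of a type and less RNA per cell cannot be told apart.

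Cd53 and Cd37 had the fewest CpG dinucleotides before their starts. In the 250 bases before the RefSeq start on GRCm38.p6, all 10 members had a promoter window, and the window nearest to the outer end of the GENCODE gene was used (for Tspan3 it lay 4407 bases from that end, and the window of Cd37, whose RefSeq start lies 276 bases from it, falls inside the GENCODE gene). Cd53 held 2 CpG dinucleotides and Cd37 held 8, whereas the other members held 12 (Cd151) to 24 (Tspan4). The median was 15 CpG over the members and 6 over all 32851 windows. The hexamer GAGGAA, a purine-rich core of the kind bound by the myeloid factor PU.1, was searched on both strands. It occurred in 3 of the 10 windows, those of Cd53, Cd37 and Tspan14, against 23.3% of all windows. The GC box GGGCGG, a core of SP1-type sites, was also searched on both strands. It occurred in 8 of 10, in all but Cd53 and Tspan3, against 32.7% of all windows, and the TATA hexamer TATAAA occurred in 0 of 10, against 12.4%. A match describes letters and not a bound site. The windows of Cd53 and Tspan14 are shown because both hold the core at the same distance, 33 bases before the start, in a CpG-poor and a CpG-rich setting. That of Cd81 is shown as the most abundant member, without the core and trimmed to its 239 bases outside annotated exons, and Cd37 is shown only around the core nearest to its start, at 17 bases. All 30 bases of that Cd37 stretch are exonic in GENCODE, though they lie before the RefSeq start. Capitals mark GAGGAA, which reads TTCCTC where it lies on the other strand.
Cd53, chr3:106790150-106790399, minus strand: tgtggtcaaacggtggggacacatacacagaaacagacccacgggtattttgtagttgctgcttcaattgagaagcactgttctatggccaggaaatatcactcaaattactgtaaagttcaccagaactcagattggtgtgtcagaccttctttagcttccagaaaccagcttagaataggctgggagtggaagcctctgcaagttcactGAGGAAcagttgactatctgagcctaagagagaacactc
Tspan14, chr14:40966897-40967146, minus strand: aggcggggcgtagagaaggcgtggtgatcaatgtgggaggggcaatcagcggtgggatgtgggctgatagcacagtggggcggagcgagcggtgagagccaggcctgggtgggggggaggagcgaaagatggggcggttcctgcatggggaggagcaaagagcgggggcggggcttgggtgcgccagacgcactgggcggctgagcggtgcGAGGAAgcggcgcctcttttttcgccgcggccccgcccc
Cd81, chr7:143052500-143052738, plus strand: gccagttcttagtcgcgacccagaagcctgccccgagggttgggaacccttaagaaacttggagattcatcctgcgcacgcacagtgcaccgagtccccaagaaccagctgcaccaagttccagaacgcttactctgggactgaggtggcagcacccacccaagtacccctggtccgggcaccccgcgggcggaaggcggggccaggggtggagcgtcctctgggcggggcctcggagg
Cd37, chr7:45238845-45238874, minus strand: cccccccggaacTTCCTCtttctctgccgg

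All 10 genes were detected in every library, at levels that spanned a wide range, and none passed the test of spread between libraries given below. Levels below are CPM with TMM scaling (trimmed mean of M values), given as mean ± SD over the 4 libraries. The members summed to 4580 CPM, of which Cd81 alone made up 37.5%. The other 21 tetraspanin genes in the table summed to 667 CPM, so the 10 members held 87.3% of the counts of the family.

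**Figure D1:**
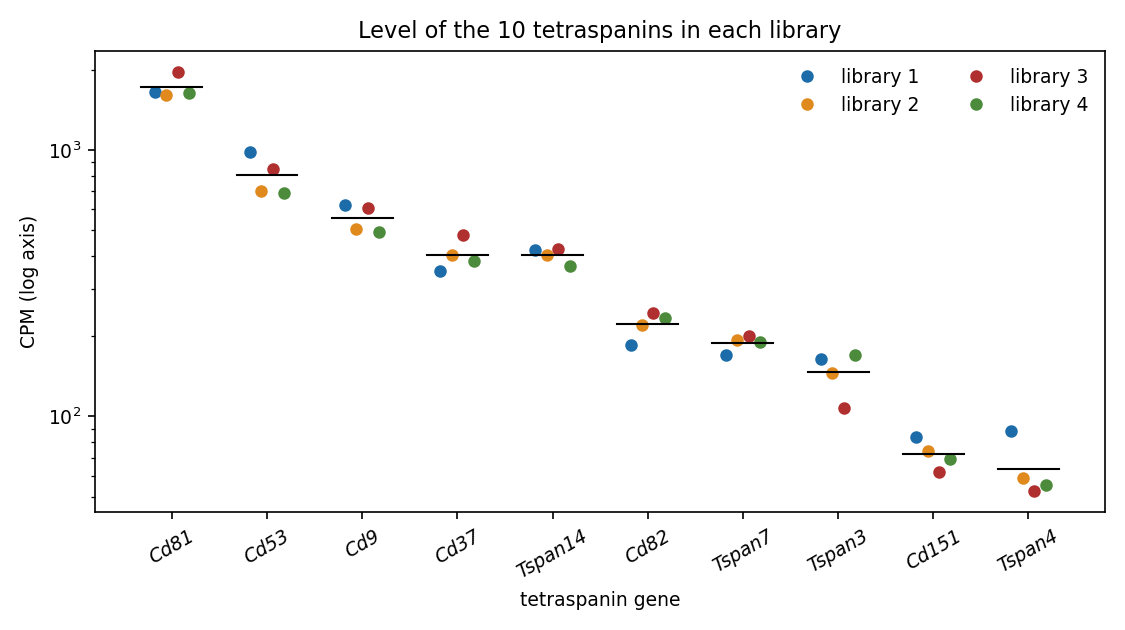
CPM (log axis) of the 10 tetraspanin genes, 1 point per library and a black line at the mean of 4. Cd81 is highest in every library, between 1611 and 1967 CPM, and Tspan4 and Cd151 are lowest by mean, at 63.7 and 72.1 CPM.

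Cd81 and Cd9 are broadly expressed, closely related tetraspanins that share immunoglobulin-family partners and restrain macrophage fusion. Cd81 (ENSMUSG00000037706, chromosome 7, 143052739 to 143067934 on GRCm38) had 1656, 1611, 1967 and 1633 CPM in libraries 1 to 4, a mean of 1717 ± 168. Library 3 was above the other 3, which lay close together, and was highest under all 4 scalings tried, though when scaled on the homeostatic microglia markers its gap to the next library was only 0.00526 of the range. The interferon-response genes summed to 215, 324, 741 and 497 CPM and were also highest in library 3. Their part in the Cd81 value was not tested. Cd9 (ENSMUSG00000030342, chromosome 6, 125460266 to 125494791) had 622, 506, 606 and 491 CPM, a mean of 556 ± 67.4. It was high in libraries 1 and 3 and low in libraries 2 and 4. Per kb of exonic length, the Cd81 level was 1.89, 2.26, 2.31 and 2.36 times that of Cd9 within libraries 1 to 4, a ratio that needs no scaling between libraries. In the annotation, 10.7% of the exonic bases of Cd9 lie under the antisense gene Gm26728 and a pseudogene, Cd9-ps, shares sequence with it. The strand setting of the counting is not given, so a part of the Cd9 level is uncertain.

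Igsf8 and Ptgfrn encode the immunoglobulin-family proteins that bind Cd9 and Cd81 most directly. Igsf8 had 60.5, 73.3, 84.4 and 68.8 CPM and Ptgfrn had 35.0, 41.8, 32.2 and 39.4 CPM in libraries 1 to 4. Both were far below their tetraspanins. Per kb, Cd81 exceeded Igsf8 by 39.8-fold to 49.6-fold and Cd9 exceeded it by 17.6-fold to 26.2-fold across the libraries. Ezr, Msn and Rdx encode ezrin, moesin and radixin, which tie this complex to actin. Msn was the highest of them at 665 ± 88.1 CPM, with Rdx at 197 ± 25.3 CPM. Ezr had 53.5, 89.7, 28.1 and 120 CPM and was lowest in library 3.

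Cd53, Cd37 and Cd82 are the tetraspanins best known from leukocytes. Cd53, a pan-leukocyte protein linked to the stability of L-selectin, had 983, 703, 851 and 688 CPM in libraries 1 to 4, a mean of 806 ± 139. It lies on chromosome 3, 106759921 to 106790149 (ENSMUSG00000040747). Like Cd9, it was high in libraries 1 and 3 and low in libraries 2 and 4. Cd37, which regulates antibody responses and the fungal receptor dectin-1, had 353, 402, 481 and 383 CPM, a mean of 405 ± 54.9. It lies on chromosome 7, 45233632 to 45239115 (ENSMUSG00000030798). Cd82, described as a suppressor of metastasis, had 186, 221, 244 and 234 CPM, a mean of 221 ± 25.4. It lies on chromosome 2, 93419111 to 93463140 (ENSMUSG00000027215). Cd37 and Cd82 were both lowest in library 1 and highest in library 3.

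The balance among these leukocyte tetraspanins differed in library 1. Per kb, Cd53 stood at 5.63 times Cd37 in library 1, and at 3.53, 3.58 and 3.64 times in libraries 2 to 4. Against Cd82 it stood at 9.11 times in library 1 and at 5.50, 6.01 and 5.07 times in the others. These ratios do not depend on the scaling, and 1 library cannot be tested against 3 as a group. In library 1, border-associated macrophage markers summed to 1575 CPM, against 981 to 1158 CPM in the others, and their part in the ratios was not tested. Clec7a, which encodes dectin-1, had 50.7, 74.0, 107 and 71.2 CPM, with the same highest and lowest library as Cd37. Cr2, which encodes a complement receptor of B cells, had at most 0.088 CPM. Of 5 B cell markers 2 passed 1 CPM in every library (Cd79b and Cd22), while Cd79a, Ms4a1 and Pax5 stayed below it.

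Cd151 binds laminin-receptor integrins at the cell surface. It had 83.5, 74.0, 61.9 and 69.1 CPM in libraries 1 to 4, a mean of 72.1 ± 9.08 (ENSMUSG00000025510, chromosome 7, 141467392 to 141471473). Library 3 was the lowest. Of its integrin partners, Itgb1 had 526 ± 39.0 CPM and Itga6 had 500.1 ± 59.8 CPM. Itga3 had 14.0, 20.2, 4.27 and 21.9 CPM and Itga7 had 17.9, 20.3, 2.82 and 14.0 CPM, both far lower in library 3. Per kb, Itga6 exceeded Itga3 by 14.0-fold to 19.1-fold in libraries 1, 2 and 4 and by 82.5-fold in library 3. In that library endothelial markers summed to 211 CPM, against 779 to 913 CPM in the others, and pericyte and smooth muscle markers to 110 CPM, against 481 to 726 CPM. None of these markers was at 0 over the 4 libraries, and their part in the Itga3 and Itga7 values was not tested.

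Tspan14 belongs to the TspanC8 subgroup, whose members bind ADAM10, a protease that sheds surface proteins, and bring it to the membrane. It had 422, 404, 427 and 366 CPM in libraries 1 to 4, a mean of 405 ± 27.4 (ENSMUSG00000037824, chromosome 14, 40906445 to 40966807). Library 4 was the lowest, and the range was narrow, 1.17-fold. Adam10 had 502 ± 71.5 CPM and the related protease gene Adam17 had 353 ± 32.4 CPM. Per kb, Tspan14 stood at 1.92, 1.42, 1.37 and 1.37 times Adam10 in libraries 1 to 4.

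Tspan14 was by far the most abundant TspanC8 gene. Tspan33 had 60.8 ± 11.1 CPM and Tspan5 had 25.0 ± 5.98 CPM, and Tspan17 and Tspan15 had 5.32 ± 1.47 and 2.39 ± 0.897 CPM. Tspan10 had 1, 1, 0 and 2 counts, under the floor of 3 counts. Per kb, Tspan14 exceeded Tspan5 by 46.0-fold, 38.5-fold, 72.8-fold and 35.6-fold in libraries 1 to 4. Those 5 genes were lowest in library 3, where Tspan14 was highest with TMM and DESeq2 scaling, but not with total counts (library 1) or homeostatic scaling (library 2).

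Tspan3, Tspan4 and Tspan7 are less studied in microglia. Tspan3 had 164, 146, 107 and 170 CPM in libraries 1 to 4, a mean of 147 ± 28.2 (ENSMUSG00000032324, chromosome 9, 56131725 to 56165477). Library 3 was the lowest, the library in which endothelial, pericyte and choroid plexus markers were also lowest, and their part in the Tspan3 value was not tested. Tspan4, known from migrasomes, the vesicles that migrating cells leave behind, had 88.4, 58.9, 52.3 and 55.4 CPM, a mean of 63.7 ± 16.6. Its value in library 1 was above the other 3, whose mean was 55.5 CPM. Erythroid markers, at 365, 174, 32.4 and 65.9 CPM in sum, and the border-associated macrophage markers were highest in library 1 too, and their part in the Tspan4 value was not tested. Of the exonic bases of Tspan4, 13.4% overlap Chid1 on the other strand, so its level is uncertain in part. Tspan4 (ENSMUSG00000025511) lies on chromosome 7, 141475240 to 141493427, on the same strand as Cd151 and 3.77 kb after it. Both neighbours were highest in library 1 and lowest in library 3, and their ratio per kb was 0.751, 0.998, 0.940 and 0.990 for Cd151 over Tspan4. Of the exonic bases of Cd151, 7.04% overlap the antisense gene Gm10575.

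Tspan7 is known from neurons, where it acts at synapses, and from endocrine cells. It had 170, 193, 200 and 190 CPM in libraries 1 to 4, a mean of 188 ± 12.6 (ENSMUSG00000058254, chromosome X, 10485158 to 10596605). Library 1 was the lowest, and the range was 1.17-fold. The 9 neuronal markers together summed to 17.3 to 28.7 CPM in a library, and the part of neurons in the Tspan7 values was not tested. Tspan7 is also found in endothelial cells, and it was set beside the endothelial marker Cldn5. Per kb, Tspan7 stood at 0.222, 0.362, 2.26 and 0.482 times Cldn5 in libraries 1 to 4. The high ratio in library 3 depends on the marker chosen. There Cldn5 was 6.40-fold below the mean of the others, the largest drop of the 10 endothelial markers, and Kdr, with the smallest, 1.25-fold below. The part of endothelial cells in the Tspan7 values was not tested.

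Levels of different genes were compared after division by exonic length. In that order came Cd81 at 596 ± 58.3, Cd53 at 463 ± 79.6, Cd9 at 272 ± 33.0, Tspan14 at 153 ± 10.4, Cd37 at 115 ± 15.6 and Cd82 at 73.7 ± 8.45 CPM per kb. Each of these 6 lay above the next gene in 4 of 4 libraries, by 0.38 (Cd81 over Cd53) to 1.12 (Cd82 over Tspan3) on the log2 scale. Then came Tspan3 at 34.3 ± 6.60, Tspan4 at 29.3 ± 7.64, Tspan7 at 26.6 ± 1.79 and Cd151 at 26.3 ± 3.31 CPM per kb. Neighbours among these last 4 differed by less than the SD of their within-library difference, with gaps of 0.24 ± 0.32, 0.11 ± 0.44 and 0.02 ± 0.27 (log2, SD, n = 4). For each gap, an exact two-sided permutation test that flipped its sign by library gave p = 0.125 (adjusted p = 0.188 over the 9 neighbouring pairs) in the 6 pairs with the same order in every library, the smallest p this design allows. The order depended on the length used. With the longest transcript in place of all exonic bases, 4 of these 6 pairs kept their order in every library: Cd53 over Cd9 moved from 0.76 to 0.02 (log2), turned in 3 libraries, and Tspan14 over Cd37 moved to 0.04, turned in 2 libraries, while Cd81 over Cd53 moved from 0.38 to 1.22. The last 4 were then further apart, with Tspan3 over Tspan4 at 0.68 and Tspan4 over Tspan7 at 0.68, and Cd151 lay above Tspan7 in 4 libraries. The size of every ratio per kb depends on these lengths in the same way, but its differences between libraries do not. Tspan7 ranked above Tspan3 in CPM and below it per kb, since its exonic length of 7067 bases is the largest of the 10.

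**Figure D2:**
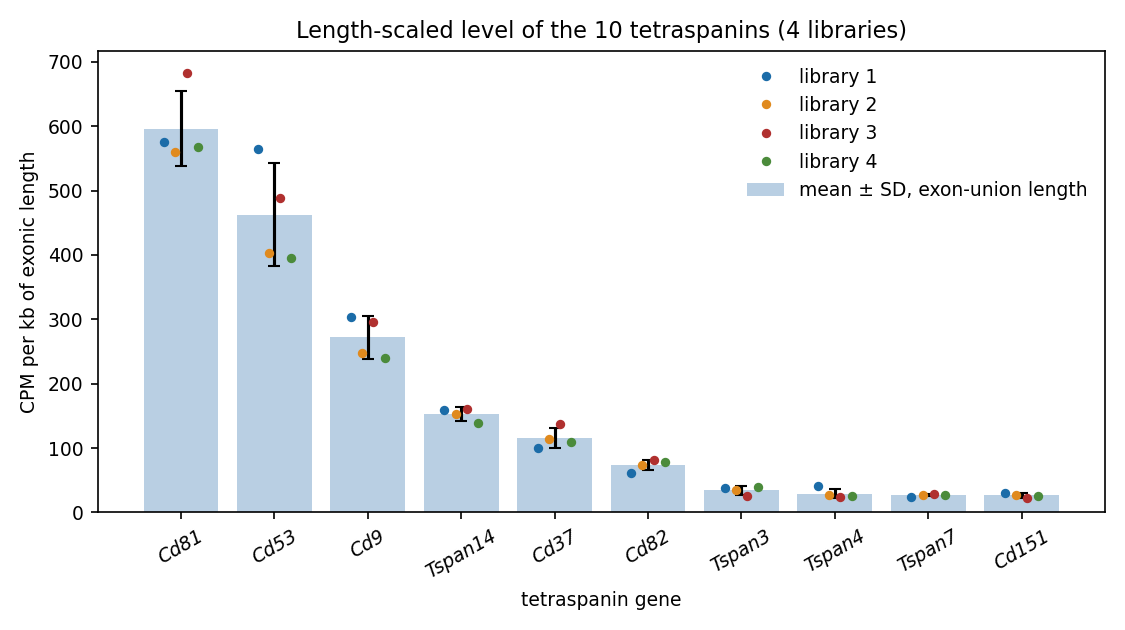
CPM per kb of exonic length for the 10 genes, as bars for the mean with SD over 4 libraries and 1 point per library. The first 6 genes descend from 596 to 73.7 CPM per kb without a change of order in any library with this length, and the last 4 lie together between 26.3 and 34.3.

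Spread between libraries was tested with edgeR's negative binomial goodness of fit over 14112 genes, which asks whether a gene varies more than genes of its level. Of the 10 members 0 passed an adjusted p of 0.05, against 3.28% of all genes tested, and 0 had an unadjusted p under 0.05, against 9.57%. The quasi-likelihood test called 0 members and 0 genes in all, and its lowest adjusted p was 0.889. A count of 0 called by it therefore sets no list of genes apart. In that test 0 members had an unadjusted p under 0.05, against 4.66% of genes. With 10 genes, a count of 0 lies near that background, and with 4 libraries in 1 group it does not show that the members were stable. Tspan4 ranked first and Tspan7 last of the members by p, and the adjusted p was 1.00 for all 10 in edgeR. The highest library exceeded the lowest by 1.17-fold (Tspan14) to 1.69-fold (Tspan4), with a median of 1.33-fold. The coefficient of variation had a median of 12.4% over the members and 16.02% over all tested genes. It was 11.7% over the 3411 genes whose mean lay within the members' range of 63.7 to 1717 CPM, with Tspan4, at 26.1%, and Tspan3, at 19.2%, the members farthest above it.

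**Figure D3:**
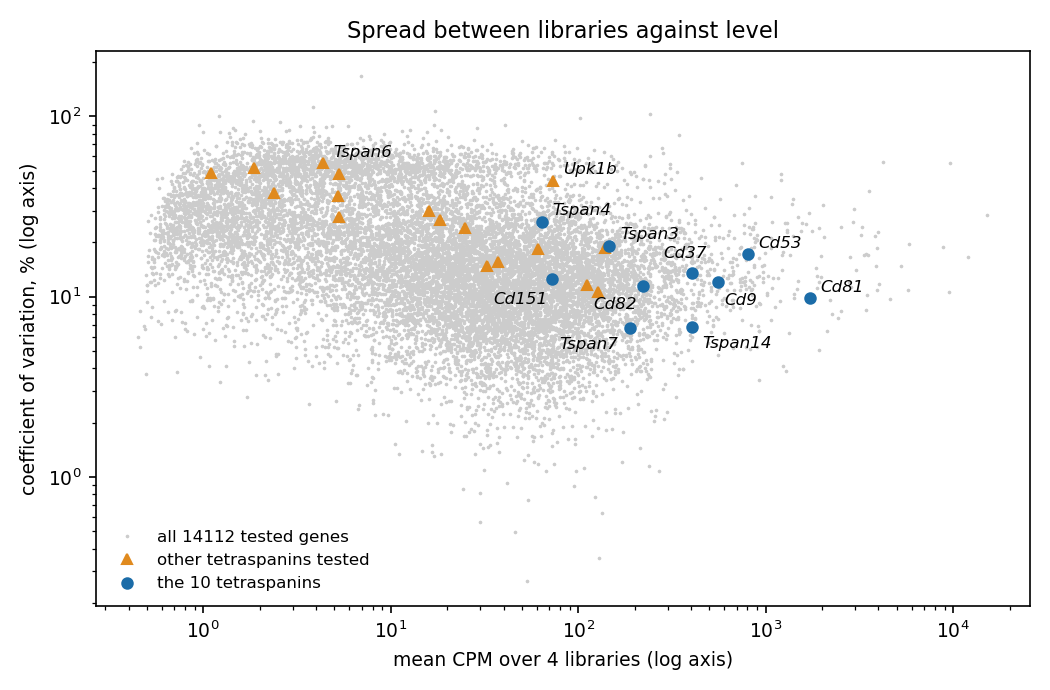
Coefficient of variation over the 4 libraries against mean CPM, both on log axes, for all 14112 tested genes (grey), the 10 members (blue circles) and the other tested tetraspanins (orange triangles). The members lie between 6.72% (Tspan7) and 26.1% (Tspan4), inside the cloud of genes of like level, while Tspan6 (55.3%) and Upk1b (44.1%) lie near its upper edge.

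The members differed in which library was highest. Cd81, Cd82, Cd37, Tspan7 and Tspan14 (5 of 10, against 28.3% of tested genes) were highest in library 3. Cd9, Cd53, Cd151 and Tspan4 (4 of 10, against 34.2%) were highest in library 1. Cd151, Tspan3 and Tspan4 (3 of 10, against 29.2%) were lowest in library 3, and Cd82, Cd37 and Tspan7 (3 of 10, against 31%) were lowest in library 1. With size factors from the homeostatic microglia list in place of TMM, which shifted all genes by -0.12, 0.07, -0.11 and 0.16 (log2) in libraries 1 to 4, the highest library changed for Cd82 and Tspan7 (library 4) and for Tspan14 and Cd151 (library 2). It changed for Cd9 with DESeq2 size factors (library 3) and, with total counts, for Cd82 and Tspan7 (library 4) and Tspan14 (library 1). Cd151, Tspan3 and Tspan4 were lowest in library 3 under all 4 scalings.

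The deviations of Cd53 and Cd9 from their own means lay closest to the median of the homeostatic microglia list among the 16 marker lists compared. The root mean square difference on the log2 scale was 0.040 for Cd53 (next, monocytes at 0.112) and 0.065 for Cd9 (next, B cells at 0.135). With homeostatic scaling the coefficient of variation of Cd9 and Cd53 was therefore lower by construction (3.34% and 9.08%), and that of Tspan4, Cd81 and Tspan14 was lower too. It was higher for Tspan7 (12.9% in place of 6.72%, with a 1.36-fold range), Tspan3 (24.9% in place of 19.2%), Cd82 (17.0% in place of 11.5%) and Cd151 (13.6% in place of 12.6%), and about equal for Cd37 (13.6%). The homeostatic microglia list was also the closest for Tspan14 (0.129), Cd81 (0.190) and Cd37 (0.265). The closest list for Tspan3 was that of oligodendrocytes, at 0.158. The oligodendrocyte markers summed to 878, 477, 396 and 609 CPM in libraries 1 to 4, with Tspan3 lowest in the same library, and their part in its values was not tested. These are descriptions over 4 libraries that differ in markers of other cells. The B cell list, most of whose genes were below 1 CPM, was nearest to Tspan4, Cd82, Cd151 and Tspan7, at 0.103 to 0.310. The 5 genes closest to Tspan4, the member with the smallest p, among 9307 genes at 10 CPM or more were Idh2, Eva1b, Galk1, Nenf and Sox4, at 0.010 to 0.026.

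**Figure D4:**
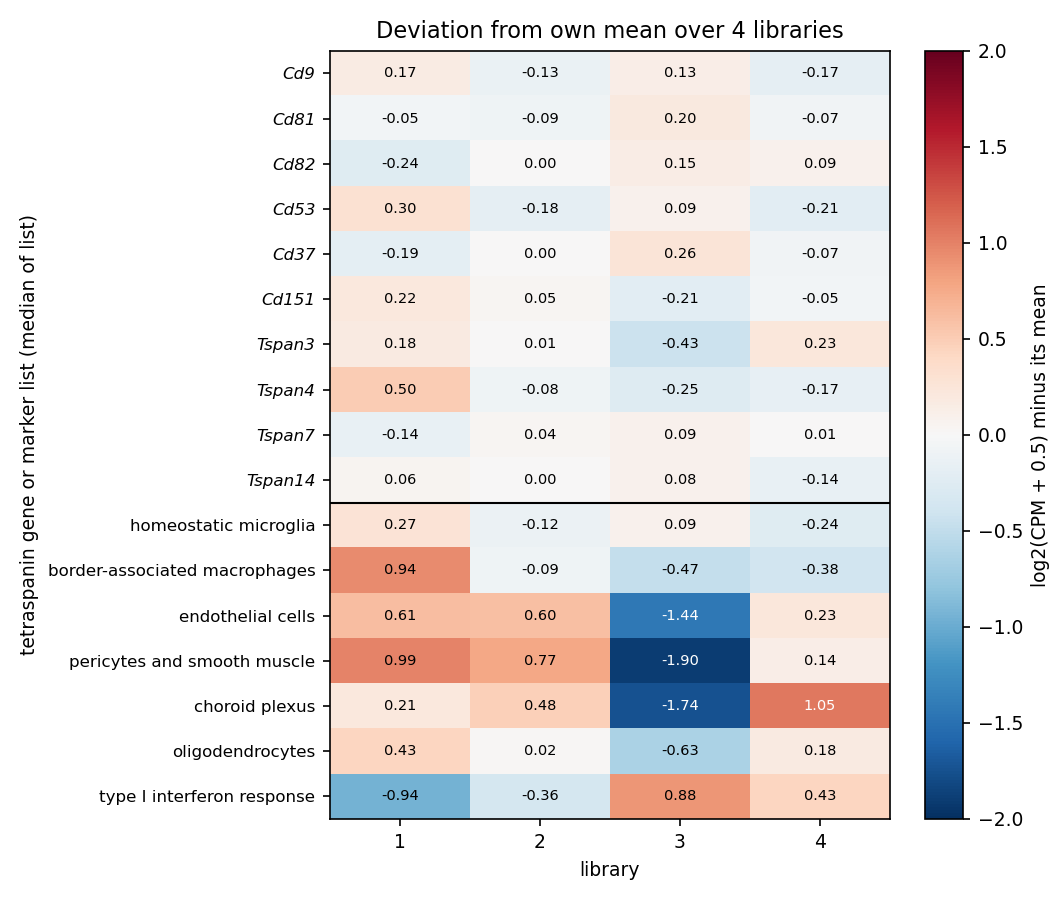
Deviation of log2(CPM + 0.5) from its mean over the 4 libraries, for the 10 members (above the line) and the medians of 7 marker lists (below it); red is above and blue below the mean. Members deviate by at most 0.50 (Tspan4 in library 1), whereas the endothelial, pericyte and choroid plexus lists lie 1.44 to 1.90 below their means in library 3.

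The rest of the family was lower in sum, though Tspan13, Cd63, Tspan31 and Upk1b had higher mean CPM than Cd151 and Tspan4. For Upk1b the mean was 73.1 CPM, against 72.1 for Cd151, and it lay above Cd151 in library 1 alone. In library 3 Upk1b was below Tspan4 too. Of the other 21 tetraspanin genes, 14 reached 1 CPM in every library and 10 had a mean of 10 CPM or more. Tspan13 had 139 ± 26.1 CPM, Cd63, the lysosomal and exosomal tetraspanin, had 127 ± 13.6 CPM and Tspan31 had 111 ± 12.9 CPM. For Tspan31, 29.2% of the exonic bases overlap Cdk4 on the other strand, and its level is uncertain. Per kb, Cd9 stood at 7.49 to 8.78 times Cd63. The remaining 7 were Upk1b, Tspan33, Tspan18 (37.5 ± 5.88 CPM), Tspan9 (32.6 ± 4.83), Tspan5, Tspan32 (18.2 ± 4.87) and Tspan2 (15.96 ± 4.78), the last a myelin-associated tetraspanin. Prph2, a photoreceptor tetraspanin, had 0 counts in all 4 libraries, which allows up to 0.119 to 0.132 CPM at 3 counts, a limit for counting error only.

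Of these 21 genes, 16 were lowest in library 3, against 29.2% of tested genes, and 18 were below the mean of the other libraries there. Those with the largest range were low in level: Tspan6 had 5.96, 5.01, 0.792 and 5.68 CPM and Tspan12, a receptor component in vascular Wnt signalling, had 7.79, 6.05, 1.81 and 5.44 CPM. Endothelial, pericyte and choroid plexus markers were low in the same library, and their part in these values was not tested. Upk1b, a uroplakin best known from the bladder lining, had 121, 61.4, 51.4 and 58.5 CPM. Its library 1 value was 2.12 times the mean of the others, 57.1 CPM. In edgeR, 0 of the 17 tested genes passed an adjusted p of 0.05 and 2 had an unadjusted p under 0.05, Upk1b (adjusted p = 0.104) and Tspan6 (adjusted p = 0.159). The quasi-likelihood test called 0 of the 17.

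Among 21 genes of tetraspanin partners, 18 were detected in every library and 19 were tested. In edgeR 3 passed the threshold, against 3.28% of all tested genes: Ezr (adjusted p = 0.000185), Itga7 (adjusted p = 0.0101) and Itga3 (adjusted p = 0.047). Each was lowest in library 3, by 3.12-fold, 6.17-fold and 4.38-fold below the mean of the others. Without library 3 none of these calls held, with adjusted p-values of 0.198 for Ezr and 1.00 for Itga7 and Itga3 in edgeR. Without library 2 the calls of Itga7 and Itga3 were lost (adjusted p = 0.113 and 0.215), and without library 4 those of Ezr and Itga3 (adjusted p = 0.0667 and 0.197). With every gene of at least 1 count tested, Itga3 had an adjusted p of 0.0824. The quasi-likelihood test called 0 of the 19, with an adjusted p of 0.889 for each of these 3. That was the lowest adjusted p of any gene in that test, so it cannot weigh on these edgeR calls. Among genes that act with Cd63 in exosome formation, Sdcbp, the syntenin that binds Cd63, had 392 ± 82.0 CPM, Pdcd6ip had 198 ± 24.7 CPM and Tsg101 had 40.1 ± 9.89 CPM, and 0 of 5 passed the threshold in edgeR or the quasi-likelihood test, nor an unadjusted p of 0.05.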

How the data were processed

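The authors deposited raw counts per Ensembl gene for 4 libraries. The submitters' processing notes name GRCm38 and the tools featureCounts 1.6.5, STAR 2.7.2b and bcl2fastq 2.20.0.422. Not given in the sources used here were the annotation release, strand setting and handling of multi-mapped reads. Symbols, coordinates and exonic lengths (union of exons) came from GENCODE M21, which matched 55230 of 55471 genes. Promoter windows came from RefSeq (GRCm38.p6). Shared sequence was checked with 50-base words over all transcripts.

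CPM used TMM-scaled library sizes in edgeR 4.0.16 (R 4.3.3). The spread test was a negative binomial goodness of fit (intercept only, trended dispersion, filterByExpr, Benjamini-Hochberg over 14112 genes, threshold 0.05). The quasi-likelihood test set each gene's variance against its trended prior on 3 and 2.62 degrees of freedom. The script was tested on simulated data. With counts simulated for the same 14112 genes, the spread test called 7 of 100 genes raised 2-fold in a randomly drawn library. It called 65 of 100 raised 4-fold and 5 of 13912 unchanged genes. The counts were drawn at the trended dispersion, without the variation of single genes around it. The 5 calls are therefore not a rate of false calls for the real data. No library pair was identical.

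Every member was named. Of the other tetraspanins, TspanC8 genes, partners and exosome companions, genes with a mean of 10 CPM or more could be named, and the 5 genes nearest in pattern to the member of smallest p. Named genes below that level (Tspan6, Tspan10, Tspan12, Tspan15, Tspan17, Prph2, Cr2 and B cell markers), and the marker Cldn5, were singled out after their values were seen. Members and lists were chosen with earlier results of these data known. Of 186 listed genes 185 had a single identifier. Hgs had more than one and was left out. Alternatives were other scalings, DESeq2 1.42.0 size factors, filters, dispersions, lengths and leaving out each library.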

Additional observations from a re-analysis of the deposited data

Results flagged for a closer look

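Cd81 stood out in library 3, at 1967 CPM against 1611 to 1656 CPM in the other 3 libraries. Its gap to the nearest library took 0.873 of the range, above Dixon's 95% critical value for 4 samples. About 1 in 20 groups is marked by chance, and this was 1 of 10 genes examined. The gap took 0.957 of the range with DESeq2 size factors, 0.777 with total counts and 0.00526 with homeostatic scaling, so of these 4 scalings Cd81 passed under TMM and DESeq2. Tspan4 in library 1 passed it with DESeq2 size factors alone, at 0.834 of the range, against 0.817 with TMM. The whole difference of Cd81 between the highest and lowest library was 1.22-fold.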

How the results depend on the processing

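The count of members past the threshold was 0 under all 10 alternatives to the reported edgeR test, and the adjusted p of each member stayed at 0.805 (Tspan4) or more. The reported test called only 7 of 100 genes raised 2-fold in simulated data, and the members ranged over 1.17-fold (Tspan14) to 1.69-fold (Tspan4). A count of 0 in every setting therefore does not show that the members were stable. Over the whole table, 463 genes were called, against 0 with the quasi-likelihood test, 1058 with a common dispersion and 106 to 425 when 1 library was left out (425, 276, 106 and 258 without libraries 1 to 4). The cause was not tested. The 70 alternative mean levels of single members stayed within 1 SD of the reported mean. Only the other scalings could have failed this check. A mean over 4 libraries always moves by less than 1 SD when 1 library is dropped. The median over the members, taken in each library and then averaged over libraries, was 304 CPM, and 294 to 316 CPM when 1 library was left out. Of the 9 neighbouring pairs, 6 had the same order in every library. Leaving out 1 library cannot change an order shared by every library, so it does not test these 6. With longest-transcript length 4 of these 6 pairs kept their order (not Cd53 over Cd9 or Tspan14 over Cd37), and without length correction 5 (not Tspan14 over Cd37). Over the pairs as ordered anew in each setting, the count was 7 with either length setting and 6 to 8 when 1 library was left out. No paired analysis was possible because there is only 1 group. With 4 libraries of about equal depth, library spread and not depth limited the precision for the members, which had 1188 or more counts in each library.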
